A study of Mus musculus with 24 samples.

Results

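Binding sites of Foxa2 and Foxa3 were compared between a pair of induced hepatocyte-like (iHep) cell lines, using 6 of the 14 deposited peak lists of the series. The series holds 24 samples, of which 10 are input libraries with no list. Both lines were made from C57BL/6 mouse embryonic fibroblasts of embryonic day 13.5, and both were infected with Hnf4alpha. The labels of the non-EGS Foxa3 library name the strain and the infection but no cell type. Line 4a2 was infected with Foxa2 in addition and line 4a3 with Foxa3. The 3 chosen lists of line 4a2 are those of a Foxa2 antibody, and the 3 of line 4a3 are those of a Foxa3 antibody. In each line 2 of the libraries carry the term EGS in their title, which the labels do not spell out, and 1 does not (non-EGS). Flag antibody lists of the same lines were left out of the comparison. Factor, antibody and line change together and cannot be told apart. Most titles end in a number whose meaning the labels do not give. No such title number is shared between the Foxa2 and the Foxa3 lists compared, and the non-EGS Foxa3 title has none, so whatever it stands for and the line cannot be told apart. The labels do not say whether libraries of a line are separate inductions, so the spread between them may be technical.

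Foxa proteins are forkhead transcription factors with a winged-helix domain that binds closely related DNA sequences, and they can engage DNA that is wrapped in nucleosomes. Foxa1 and Foxa2 act together when the liver is specified from foregut endoderm, while Foxa3 appears later and is abundant in adult hepatocytes. Hnf4alpha is a nuclear receptor that drives many hepatocyte genes and often binds near Foxa proteins.

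The 6 lists held 19014 peaks of the 26332 in the series, 13405 for Foxa2 and 5609 for Foxa3. Foxa2 gave 957 peaks in EGS replicate 1, 1040 in EGS replicate 2 and 11408 in the non-EGS library. Foxa3 gave 1246 peaks in EGS replicate 1, 46 in EGS replicate 3 and 4317 in the non-EGS library. List lengths of the lines therefore overlapped, and the non-EGS library was the longest in each. The non-EGS Foxa2 peaks were also wider by the median, at 458 bp with none under 320 bp, against 180 bp and a minimum of 127 bp for non-EGS Foxa3. The widest peak was nevertheless a non-EGS Foxa3 peak, of 9304 bp, against a maximum of 1438 bp for non-EGS Foxa2. Median widths of the EGS lists lay between 135.5 and 149 bp. It is not known whether all lists were called with the same settings, and the part of calling in the overlaps and peak densities given here was not tested. No read counts are given, so the depth of the libraries is unknown.

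Peak number and width did not separate the lines. The mean log10 number of peaks was 3.35 ± 0.611 for Foxa2 and 2.80 ± 1.02 for Foxa3 (SD, n = 3 each; exact permutation test, p = 0.6 before and 0.72 after Benjamini-Hochberg adjustment over 6 measures per library). Median width averaged 245 ± 184 bp and 159 ± 18.3 bp (exact permutation p = 1, adjusted 1). With 3 libraries a line, no two-sided p under 0.1 can be had from the 20 possible assignments.

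Most merged regions were held by 1 line, and most of those by 1 list. When all 6 lists were merged into 15763 regions by joining peaks that overlap by at least 1 bp, 769 regions held a peak of both lines, which is 4.88% of all regions. Another 10904 held Foxa2 peaks only and 4090 held Foxa3 peaks only. Of the 15763 regions, 13682 held peaks of 1 list only, and such regions cannot hold both lines. Of the 2081 regions in at least 2 lists, 37.0% held both. Leaving out the list of 46 peaks kept the number of common regions at 769 (4.88% of 15761, and 37.0% of the 2078 regions in at least 2 lists). The count was 417 without the non-EGS Foxa2 library and 277 without the non-EGS Foxa3 library, so most of these regions need a non-EGS list.

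By library, Foxa2 peaks were found in any Foxa3 list in 29.3% (26.4 to 32.3) of EGS replicate 1, 32.4% (29.6 to 35.3) of EGS replicate 2 and 6.42% (5.97 to 6.88) of the non-EGS list. Foxa3 peaks were found in any Foxa2 list in 22.6% (20.3 to 25.1) of EGS replicate 1, 2.17% (0.055 to 11.5) of EGS replicate 3 and 15.4% (14.3 to 16.5) of the non-EGS list. These values overlapped between the lines (22.7% ± 14.2 against 13.4% ± 10.4, SD, n = 3 each; exact permutation p = 0.4, adjusted 0.6).

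Expressed for each line, 6.62% (95% Clopper-Pearson interval 6.18 to 7.09) of the 11677 merged Foxa2 regions overlapped a Foxa3 region. In the other direction, 16.8% (15.8 to 17.9) of the 4915 Foxa3 regions overlapped a Foxa2 region. With EGS libraries alone, where the lines had 1580 and 1250 regions, the shares were 12.2% (10.6 to 13.9) and 15.2% (13.3 to 17.3). With the non-EGS libraries alone they were 5.19% (4.79 to 5.61) and 14.8% (13.8 to 15.9). Without the non-EGS Foxa2 library the Foxa2 share was 26.8% and the Foxa3 share 8.59%, and without the non-EGS Foxa3 library they were 2.39% and 22.6%. Intervals of this kind cover counting error only, and neighbouring peaks are not independent.

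Lists of the same line shared more of the shorter list than lists of different lines. As a share of the shorter list, overlap was 71.2% ± 24.2 (SD, 3 pairs) within line 4a2 and 76.4% ± 22.5 (SD, 3 pairs) within line 4a3. Between lines it was 13.4% ± 9.26 (SD, 9 pairs). Pairs within a line ranged from 43.4% to 93.5%, and pairs between lines from 2.17% to 25.7%, so these ranges did not meet on this measure. They did meet on the Jaccard index, the shared length in bp as a percent of the combined length, which depends on list length. It was 0.694% to 21.3% within lines (median 2.54%) and 0.00595% to 5.34% between lines (median 1.92%), and 4 of the 6 pairs within a line lay below the highest pair between lines. The mean difference in the share of the shorter list was 60.4 percentage points (exact permutation test, one-sided, p = 0.1, the smallest that 10 splits of 6 libraries allow), so the design cannot reach 0.05. Without the list of 46 peaks, the between-line mean was 19.0% ± 4.96 (SD, 6 pairs) and the 1 remaining Foxa3 pair shared 51.0%. The difference was then 47.2 points (exact permutation test, one-sided, p = 0.1, again the smallest possible).

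**Figure D1:**
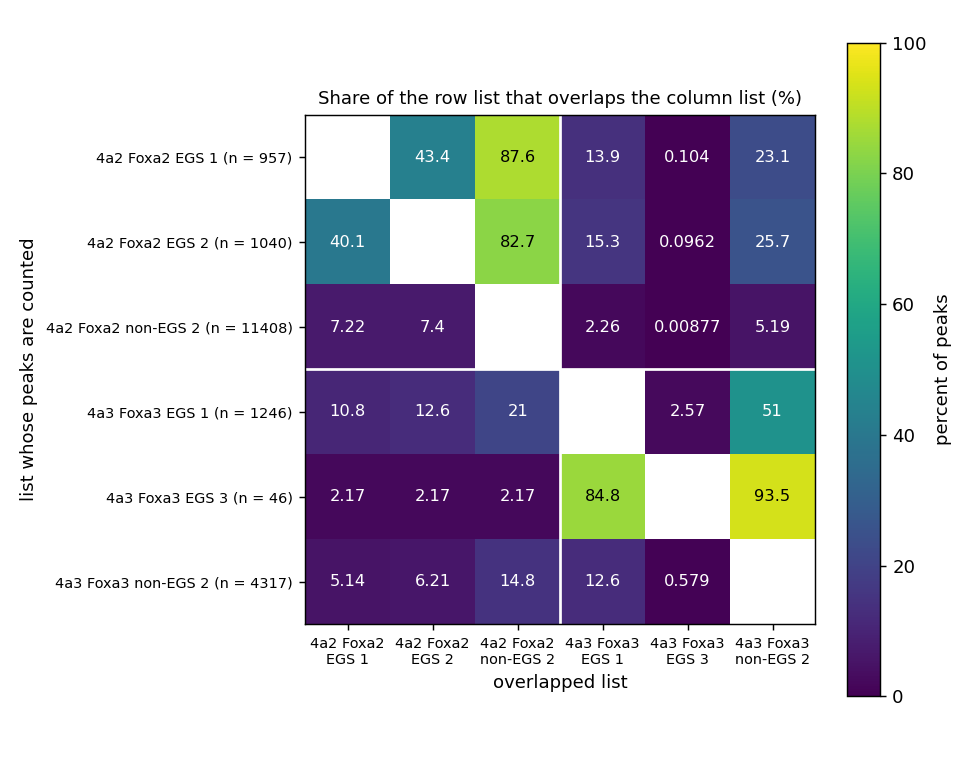
Share of peaks, in percent, of the list named in each row that overlap a peak of the list named in each column, for the 3 Foxa2 lists of line 4a2 and the 3 Foxa3 lists of line 4a3. White lines separate the lines; the highest value between lines is 25.7%, for Foxa2 EGS replicate 2 in the non-EGS Foxa3 list.

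The contrast was also present when lists were cut to the same length. Among the 900 highest-scoring peaks of each of the 5 longer lists, a length chosen after the data were seen, lists of line 4a2 shared 35.0% ± 4.96 (SD, 3 pairs) and the 1 pair of line 4a3 shared 30.8%. Pairs between the lines shared 8.47% ± 3.06 (SD, 6 pairs), from 4.33% to 12.6%. The lowest within-line pair, at 30.4%, lay above the highest between-line pair. The EGS lists of different lines (11.3% and 12.6%) shared more than the non-EGS lists of different lines (4.33%). The cut keeps most of these EGS lists, of 957, 1040 and 1246 peaks, but a small part of the non-EGS lists, of 11408 and 4317. These values therefore compare unlike parts of the lists. The difference within minus between was 25.5 percentage points (exact permutation test, one-sided, p = 0.1, the smallest possible with 10 splits).

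The list of 46 peaks, Foxa3 EGS replicate 3, held almost only sites of its own line. Of its peaks, 43 (93.5%, 82.1 to 98.6) were in the non-EGS Foxa3 list and 39 (84.8%, 71.1 to 93.7) in Foxa3 EGS replicate 1. The 43 fell on 25 peaks of the non-EGS Foxa3 list and the 39 on 32 peaks of EGS replicate 1, since 1 peak there can cover several. With each of the 3 Foxa2 lists, the list of 46 peaks shared 1 peak, and that peak was its highest. Chromosome 19 carried 17 of the 46 peaks (37.0%), against 2.40% to 4.41% of the peaks in the other lists.

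For peaks of both lines that overlapped, the distance between centres is bounded by their widths. Its median was 29 bp for Foxa2 EGS replicate 1 against Foxa3 EGS replicate 1 (134 overlapping pairs of peaks), and 26 bp for Foxa2 EGS replicate 2 against the same list (161 pairs). Between the non-EGS lists, whose peaks are wider, it was 77 bp over 641 pairs.

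Sites found repeatedly in the Foxa2 line were found more often in the Foxa3 line. Of the Foxa2 regions held by 1 Foxa2 library, 3.55% (3.20 to 3.92) of 10367 also held a Foxa3 peak. The share was 22.9% (20.2 to 25.7) of the 914 regions held by 2 libraries and 49.0% (43.9 to 54.0) of the 392 held by all 3. Of all merged Foxa2 regions, 6.62% overlapped a Foxa3 region. The 4.88% of all regions that hold both factors is a lower base, since it counts Foxa3-only regions too. Regions in all 3 Foxa2 libraries stood highest against either. For Foxa3 the shares were 14.8% (13.8 to 15.9) of 4323 regions in 1 library and 24.8% (21.1 to 28.7) of 513 regions in 2. Of the 23 regions in all 3 Foxa3 libraries, 2 held a Foxa2 peak (8.70%, 1.07 to 28.0), a number limited by the list of 46 peaks. Without that list, 129 of the 533 regions in both remaining Foxa3 libraries held one.

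Regions in at least 2 libraries of each line numbered 99, or 0.628% of all regions. All but 1 of them rested on a single pair of Foxa3 libraries: the count was 1 without Foxa3 EGS replicate 1, and 1 without the non-EGS Foxa3 library. Regions in at least 2 Foxa2 libraries and no Foxa3 library numbered 905, a count that was 533, 551 and 221 without EGS replicate 1, EGS replicate 2 and the non-EGS library of Foxa2. Regions in at least 2 Foxa3 libraries and no Foxa2 library numbered 407, but 23 without Foxa3 EGS replicate 1 and 28 without the non-EGS Foxa3 library. Without the list of 46 peaks the counts were 99, 905 and 404.

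The rank of a peak within its list went with sharing for Foxa2 and not for Foxa3. The authors' peak score was used for ranks only, and each list was split into 10 equal parts by rank, so that the top and bottom parts hold 10% of its peaks each. In the non-EGS Foxa2 list, 20.4% (18.0 to 22.8) of the top 10% were found in the Foxa3 line, against 2.72% (1.85 to 3.83) of the bottom 10%. For Foxa2 EGS replicate 1 the shares were 54.7% (44.2 to 65.0) and 12.5% (6.63 to 20.8), and for EGS replicate 2 they were 59.6% (49.5 to 69.1) and 19.2% (12.2 to 28.1). The intervals of top and bottom 10% did not overlap in any of the 3 Foxa2 lists.

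Foxa3 peaks showed no such rise. In Foxa3 EGS replicate 1, 13.7% (8.19 to 21.0) of the top 10% and 20.8% (14.1 to 29.0) of the bottom 10% were found in the Foxa2 line. In the non-EGS Foxa3 list the shares were 13.9% (10.8 to 17.6) and 11.8% (8.92 to 15.2). The median rank percentile of shared non-EGS Foxa3 peaks was 48.8, the same as that of unshared ones, while for non-EGS Foxa2 it was 76.7 against 48.3. Foxa3 scores were more often tied, with 493 distinct values among 4317 non-EGS peaks against 3371 among 11408 for Foxa2. The part of ties in the flat Foxa3 profile was not tested. Shared Foxa2 peaks had wider medians than unshared ones, with 161 against 136 bp in EGS replicate 1, 144 against 131 bp in EGS replicate 2 and 553 against 454 bp in non-EGS. For Foxa3 the medians were 141 against 152 bp in EGS replicate 1 and 191 against 177 bp in non-EGS. The part of width in the rank profiles was not tested either.

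**Figure D2:**
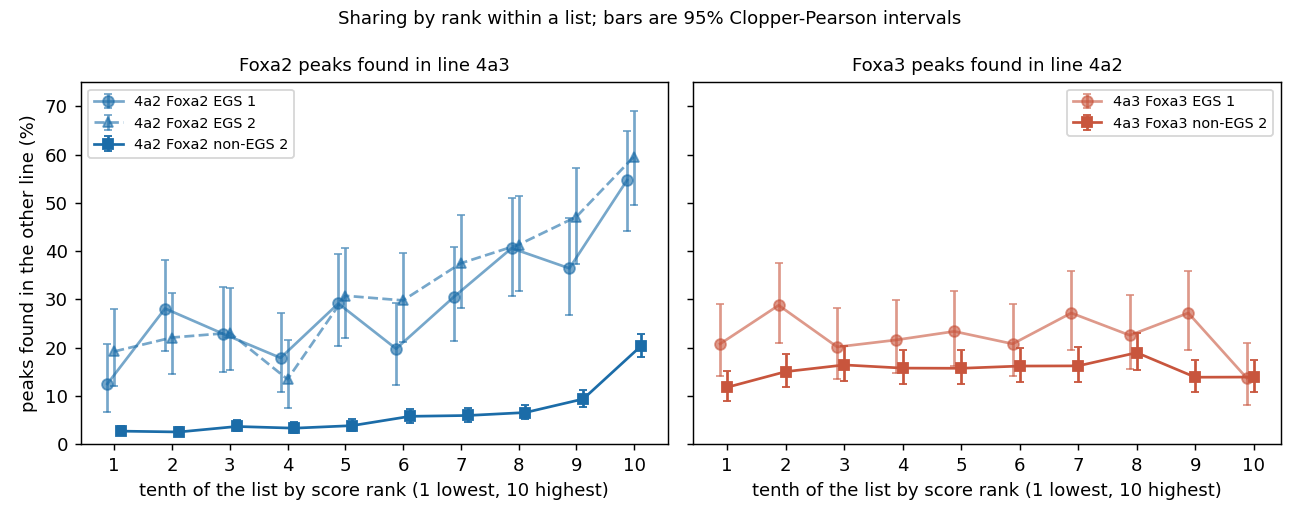
Percent of peaks found in the other line (vertical axis) by rank within the list in 10 equal parts (horizontal axis, 10 highest), with 95% Clopper-Pearson intervals, for the 5 lists of 900 or more peaks. The left panel shows Foxa2 lists, which reach 54.7%, 59.6% and 20.4% in the top 10%, and the right panel Foxa3 lists, at 13.7% and 13.9%.

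The non-EGS lists had 590 regions in common, and the Spearman correlation of their rank percentiles across these regions was 0.10. The regions come from 1 library a line and are not replicates. Percentiles of lists of 11408 and 4317 peaks are not on a common scale, so they are not compared with each other here.

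**Figure D3:**
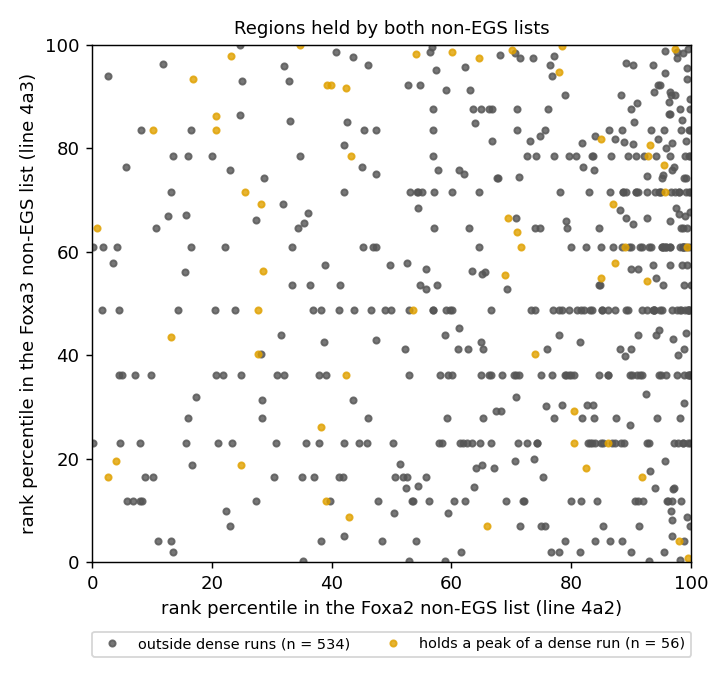
Rank percentile of the 590 regions held by both non-EGS lists, in the Foxa2 list (horizontal) and in the Foxa3 list (vertical), with 100 the highest score. The axes are separate scales of lists of 11408 and 4317 peaks; the points follow no diagonal (Spearman correlation 0.10), and they form horizontal rows where Foxa3 scores are tied.

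Single regions with unlike ranks are given as a description within each list, since a rank in 1 list measures no difference from another. The region on chromosome 1 from 92819842 to 92820657 (mm9 throughout, starts counted from 1) ranked 56 of 11408 for non-EGS Foxa2 and 4271 of 4317 for non-EGS Foxa3. The region on chromosome 9 from 82869091 to 82869620 ranked 11107 and 245 in the same lists. On chromosome 5, 75440277 to 75440710 ranked 10065 for non-EGS Foxa2 and 159 for non-EGS Foxa3, but 24 of 957 and 20 of 1040 in the Foxa2 EGS lists and 189 of 1246 in Foxa3 EGS replicate 1. Lists of the same factor thus placed this region far apart.

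Among common sites, 1 region was held by all 6 libraries. It lies on chromosome 17 from 35848274 to 35849145 and ranked 38, 98 and 48 in Foxa2 EGS replicate 1, EGS replicate 2 and non-EGS. In the Foxa3 lists it was the first peak of both EGS libraries and ranked 39 in the non-EGS library. Its rank percentile was 90.6 or higher in every list. It also held peaks of all 3 Foxa1 lists of line 4a1 and of no hepatocyte list.

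The other 5 leading common regions were held by 5 of the 6 libraries, all but the list of 46 peaks. On chromosome 9, 62938644 to 62939616 ranked 11, 49 and 263 for Foxa2, and 85 and 56 for Foxa3 EGS replicate 1 and non-EGS. The region on chromosome 13 from 99584797 to 99585777 ranked 15, 9 and 731 for Foxa2, and 399 and 174 for Foxa3, and held no Foxa1 peak of line 4a1. Those on chromosome 4 (137423070 to 137423720) and chromosome 7 (148662190 to 148662784) each held peaks of 1 hepatocyte list. The region on chromosome 10 from 86307884 to 86308740 led both Foxa2 EGS lists and ranked 4 in the non-EGS Foxa2 list, and it too held a peak of 1 hepatocyte list. For Foxa3 it ranked 39 of 1246 in EGS replicate 1 and 1969 of 4317 in the non-EGS list. The highest non-EGS Foxa2 peak, on chromosome 4 from 3734058 to 3734909, ranked 711 in Foxa3 EGS replicate 1 and was in neither of the other Foxa3 lists.

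Foxa2 regions without Foxa3 that were in all 3 Foxa2 libraries numbered 200. By mean rank percentile they were led by chromosome 11 from 120092676 to 120093272 (ranks 93, 25 and 443) and from 40603704 to 40604278 (ranks 109, 36 and 139). The first of these lies within a dense run (defined below) of 8 non-EGS Foxa3 peaks, from 120091492 to 120099932. None of those 8 peaks overlapped a Foxa2 peak. Chromosome 17 from 71438320 to 71439048 (76, 109 and 7) and chromosome 1 from 75334226 to 75334928 (144, 50 and 45) followed. The last of the 6 were chromosome 3 from 131155999 to 131156681 (35, 161 and 80) and chromosome 5 from 68381351 to 68382262 (155, 65 and 6). Each of these 6 also held a peak of at least 1 Foxa1 list of line 4a1, and none held a hepatocyte peak. The regions starting at 120092676, 75334226 and 68381351 also held a peak of the Flag list of line 4a3, and the others did not.

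Foxa3 regions without Foxa2 that were in all 3 Foxa3 libraries numbered 21. The first was on chromosome 19 from 5838626 to 5845582, with ranks of 46 in EGS replicate 1, 2 in EGS replicate 3 and 1 in the non-EGS list. In mm9 this stretch is known to lie in Neat1, a long noncoding RNA that organises nuclear paraspeckles. Gene names given here and in the next paragraphs come from general knowledge of mm9 and were not checked against an mm9 annotation, which was not used here. Chromosome 13 from 23830434 to 23832145 ranked 22, 3 and 42 and lies in the Hist1 cluster, which encodes replication-dependent and linker histones. Further regions were chromosome 11 from 69571649 to 69572453 (15, 4 and 8) and from 101506278 to 101507869 (2, 5 and 11), chromosome 12 from 55810556 to 55812270 (3, 6 and 4) and chromosome 3 from 96043178 to 96044656 (40, 6 and 104). None of these 6 held a Foxa1 peak of line 4a1, and 5 of them, all but that on chromosome 13, held a hepatocyte peak.

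Foxa3 peaks often lay in dense runs, defined here as at least 5 peaks of 1 list, each starting less than 5 kb after the end of the previous one. Such runs held 20.5% of Foxa3 EGS replicate 1, 32.6% of EGS replicate 3 and 21.5% of the non-EGS list. In the Foxa2 lists the values were 0%, 0.865% and 0.0526% for EGS replicate 1, EGS replicate 2 and non-EGS. The lines did not overlap, with 24.9% ± 6.73 (SD, n = 3) against 0.306% ± 0.485 (SD, n = 3), a difference of 24.6 percentage points (two-sided exact permutation p = 0.1, the lowest value possible here; adjusted 0.2). The longest of the 6 lists, non-EGS Foxa2 with 11408 peaks, held 6 dense-run peaks, while the non-EGS Foxa3 list held 928. Their minimum widths, 320 bp and 127 bp, differed as well, and the part of peak calling in these counts was not tested. Over all merged regions of the 6 lists, 6.69% held a peak of a dense run.

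In the 2 longer Foxa3 lists, peaks of these runs were less often found in the Foxa2 line than other peaks. Among dense-run peaks, 3.92% (1.90 to 7.09) of 255 in Foxa3 EGS replicate 1 were found in the Foxa2 line, against 27.4% (24.7 to 30.3) of the 991 peaks outside runs. In the non-EGS Foxa3 list the shares were 7.54% (5.93 to 9.43) of 928 and 17.6% (16.3 to 18.9) of 3389. In EGS replicate 3 they were 0 of 15 (0% to 21.8%) and 1 of 31 (3.23%, 0.0816 to 16.7), too few to show a difference. Over the whole span of a run, 7 of 31 runs in EGS replicate 1 and 46 of 126 runs in the non-EGS list held any Foxa2 peak.

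The run with most peaks was in the non-EGS Foxa3 list, with 34 peaks over 39.7 kb on chromosome 6 from 52171874 to 52211547, and it held no Foxa2 and no Foxa1 peak. This stretch covers posterior genes of the Hoxa cluster, such as Hoxa9, Hoxa10, Hoxa11 and Hoxa13, which pattern the body axis and limbs. The next, with 30 peaks, was on chromosome 19 from 5819501 to 5850312 around Neat1 and held 1 Foxa2 peak. In Foxa3 EGS replicate 1 the run with most peaks, 22 from 5831371 to 5845425 on chromosome 19, lay at the same gene and held no Foxa2 peak. Both runs of the list of 46 peaks were on chromosome 19 as well, with 6 peaks from 5840185 to 5845397 at Neat1 and 9 peaks from 5794651 to 5802249. The latter stretch is that of Malat1, an abundant nuclear noncoding RNA, which neighbours Neat1 in the RefSeq table of GRCm38.p6.

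Each of the 2 dense runs of Foxa2 also held Foxa3 peaks. The run in the non-EGS list had 6 peaks on chromosome 19 from 55934111 to 55951606, with 3 Foxa3 and 3 Foxa1 peaks in its span, in the gene Tcf7l2, which encodes a transcription factor of Wnt signalling. The run in EGS replicate 2 had 9 peaks on chromosome 17 from 39980056 to 39983275, with 3 Foxa3 and 9 Foxa1 peaks in its span. No gene was assigned to this stretch, and whether its peaks are an artefact of repeated sequence was not tested. Foxa3 and Foxa1 peaks in a span are counted over all lists of a line, so a site in several lists counts several times.

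Foxa2 sites were more often Foxa1 sites than Foxa3 sites were. The 3 Foxa1 lists come from line 4a1, fibroblasts infected with Foxa1 and Hnf4alpha, and were not used to choose any region. Foxa2 peaks were found in a Foxa1 list in 59.1% of EGS replicate 1, 49.8% of EGS replicate 2 and 24.3% of the non-EGS library. For Foxa3 the values were 16.5%, 2.17% and 7.48% in EGS replicate 1, EGS replicate 3 and the non-EGS library. Every Foxa2 list lay above every Foxa3 list, with means of 44.4% ± 18.0 and 8.73% ± 7.26 (SD, n = 3 each). The difference was −35.7 percentage points for Foxa3 minus Foxa2 (two-sided exact permutation p = 0.1, the lowest possible; adjusted 0.2).

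By class of region, 54.4% (50.8 to 57.9) of the 769 common regions held a Foxa1 peak, against 22.0% (21.2 to 22.8) of regions with Foxa2 only and 0.489% (0.299 to 0.754) of regions with Foxa3 only. Over all merged regions the share was 18.0%. In counts, 418 common regions held a Foxa1 peak and 351 did not. Among the 99 regions in at least 2 libraries of each line it was 76.8% (67.2 to 84.7). For regions in at least 2 libraries of 1 line only, it was 51.0% (47.7 to 54.4) of 905 for Foxa2 and 0.983% (0.268 to 2.50) of 407 for Foxa3. Outside dense runs the share for Foxa3-only regions was 0.547% (0.319 to 0.874) of 3110, about as low as with them. The Foxa3-only class leaves out every region with a Foxa2 peak, and Foxa1 and Foxa2 lists overlap, so its low share is in part set by its definition. Region width differed between the classes as well. Its median was 573 bp for common regions, which join peaks of both lines, 451 bp for Foxa2-only and 174 bp for Foxa3-only regions. The part of width in the shares by class, here and for the other lists below, was not tested.

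Some of these libraries share the number at the end of their titles. Both Foxa2 EGS libraries carry that of Foxa1 EGS replicate 1, and Foxa3 EGS replicate 3 carries that of Foxa1 EGS replicate 2. The non-EGS Foxa1 library shares its number with none of the 6 lists. In its 3431 peaks alone, which overlapped 15.7% of all merged regions, the shares were 39.1% (35.7 to 42.7) of the common regions, 19.8% (19.1 to 20.6) of Foxa2-only regions and 0.318% (0.169 to 0.543) of Foxa3-only regions, in the same order. For Foxa1 EGS replicate 1, which overlapped 5.46% of all regions, they were 38.2%, 5.14% and 0.122%. For Foxa1 EGS replicate 2, with 2.52% of all regions, they were 20.4%, 2.18% and 0.0489%.

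**Figure D4:**
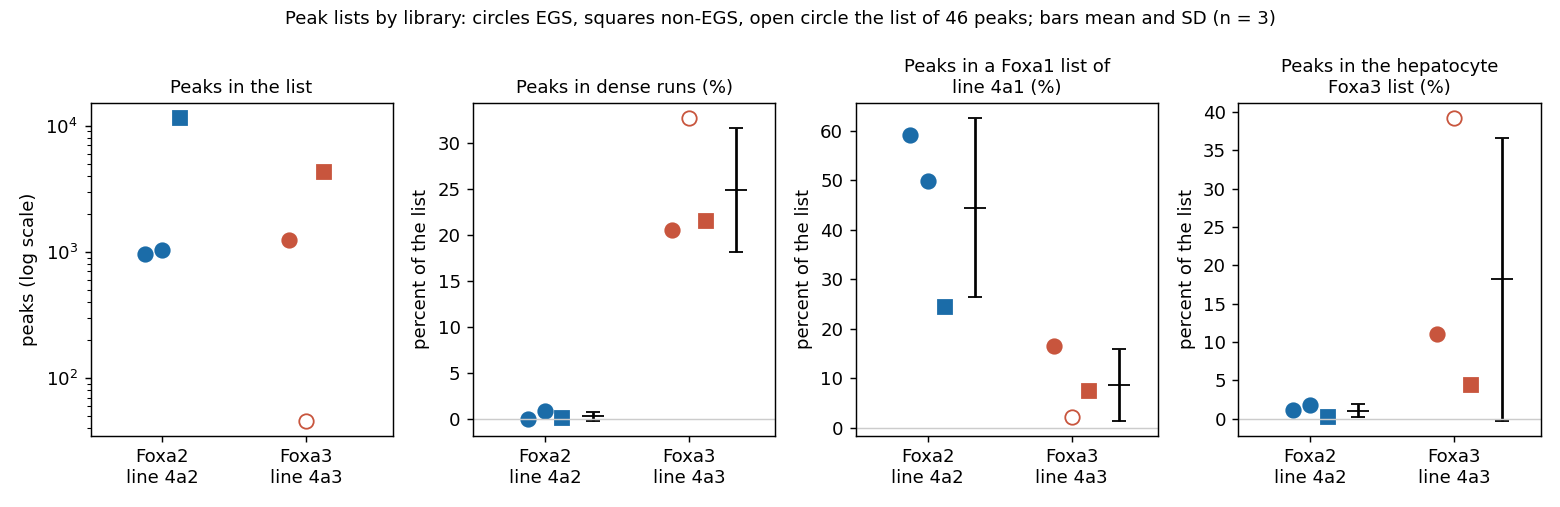
Values of each library for the number of peaks (log axis), the percent of peaks in dense runs, the percent found in a Foxa1 list of line 4a1 and the percent found in the hepatocyte Foxa3 list. Bars in all panels but the first are mean and SD of 3 libraries. The lines overlap in the number of peaks and separate in the other panels, where Foxa3 is higher in dense runs (24.9% against 0.306%) and in the hepatocyte list, and lower in the Foxa1 lists (8.73% against 44.4%).

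Adult hepatocytes, from livers of mice aged 10 weeks, gave the opposite order with the Foxa3 antibody. Peaks of the Foxa3 line were in the hepatocyte Foxa3 list in 11.0% (9.31 to 12.9) of EGS replicate 1, 39.1% (25.1 to 54.6) of EGS replicate 3 and 4.47% (3.87 to 5.13) of the non-EGS library. Foxa2 peaks were there in 1.15%, 1.83% and 0.175% of EGS replicate 1, EGS replicate 2 and non-EGS. Means were 18.2% ± 18.4 and 1.05% ± 0.83 (SD, n = 3 each), with no overlap between lines and a difference of 17.1 percentage points (two-sided exact permutation p = 0.1, the lowest possible; adjusted 0.2). Without the list of 46 peaks the difference was 6.68 points, since that list has the highest share.

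Foxa3-only regions held a hepatocyte Foxa3 peak in 4.72% (4.09 to 5.41) of 4090 cases, above the 1.48% of all merged regions, and the share was 13.3% without the non-EGS Foxa3 library. It was 9.80% (8.01 to 11.8) for regions in dense runs and 3.12% (2.54 to 3.79) outside them. Of the 407 Foxa3-only regions in at least 2 libraries, 95 held a hepatocyte Foxa3 peak (23.3%, 19.3 to 27.8) and 0 a hepatocyte Foxa2 peak, with an upper Clopper-Pearson bound of 0.902%. That bound lies above the 0.552% of all merged regions that hold one, so no depletion is shown for these 407 regions. The hepatocyte Foxa2 list is short, with 244 peaks against 1091 for Foxa3. For Foxa2-only regions the hepatocyte Foxa3 share was 0.193% (0.119 to 0.294). The hepatocyte Foxa2 list was found in 4.68% (3.30 to 6.42) of the common regions, 0.449% (0.333 to 0.594) of Foxa2-only regions and 0.0489% (0.00592 to 0.177) of Foxa3-only regions. The share of all Foxa3-only regions lay below the 0.552% of all merged regions, but this class leaves out every region with a Foxa2 peak of line 4a2. Among the 99 regions in at least 2 libraries of each line the hepatocyte Foxa2 share reached 14.1% (7.95 to 22.6). The 166 peaks of the hepatocyte Foxa1 list overlapped 0.0761% of all merged regions, with 4, 7 and 1 regions in the 3 classes. Each hepatocyte antibody has 1 library, so these shares have no replicate check. The hepatocyte Foxa3 list and the lists of line 4a3 come from an antibody to the same protein, so antibody and line cannot be told apart in this comparison.

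**Figure D5:**
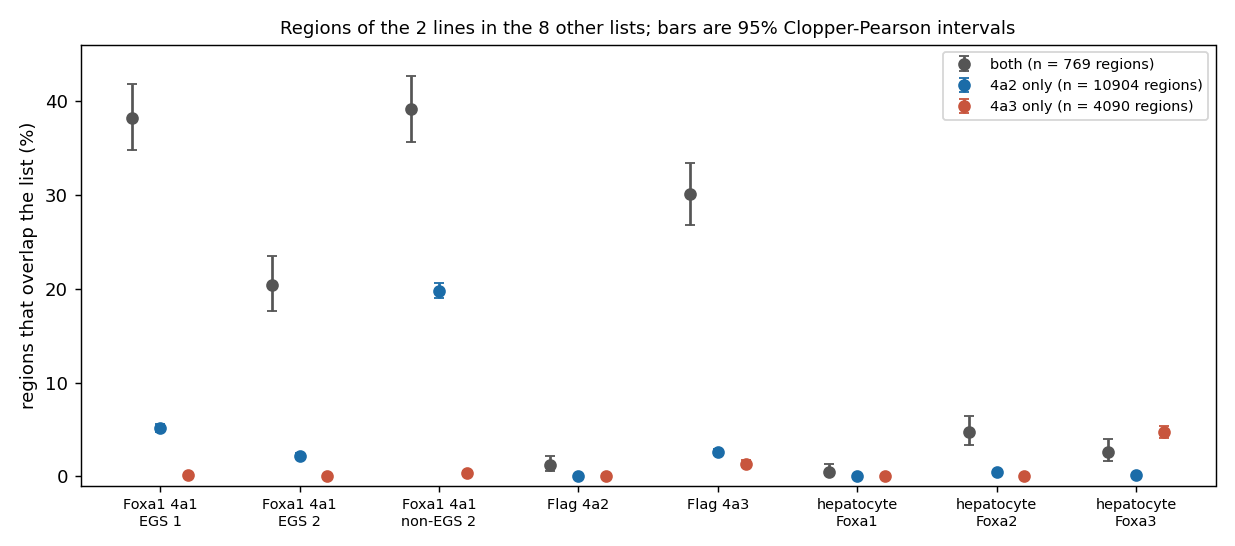
Percent of regions (vertical axis) that overlap each of the 8 other lists of the series, for regions with peaks of both lines, of Foxa2 only and of Foxa3 only, with 95% Clopper-Pearson intervals. Common regions are highest in the Foxa1 lists and in the Flag list of line 4a3 (30.0%), and Foxa3-only regions are highest in the hepatocyte Foxa3 list (4.72%). Median widths of the classes, in the order named, are 573, 451 and 174 bp.

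The Flag antibody recognises an epitope tag; the labels name no tagged protein. The 883 Flag peaks of line 4a3 overlapped 3.59% of all merged regions. They lay in 30.0% (26.8 to 33.4) of the common regions, 2.58% (2.29 to 2.89) of Foxa2-only regions and 1.32% (0.993 to 1.72) of Foxa3-only regions. The Flag list of line 4a2 has 21 peaks, which lay in 9, 1 and 3 regions of these classes, 0.0825% of all merged regions. The Flag title of line 4a3 ends in the number of Foxa3 EGS replicate 1, and that of line 4a2 in the number of Foxa3 EGS replicate 3.

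Distances between sites of the lines were measured for regions held by 1 line. Of the Foxa3-only regions, 9.56% (8.68 to 10.5) lay within 1 kb of a Foxa2 region, 33.3% (31.9 to 34.8) within 10 kb and 82.1% (80.9 to 83.3) within 100 kb. For Foxa2-only regions the shares near one of the fewer Foxa3 regions were 1.55%, 7.19% and 31.9%. Foxa3-only regions of dense runs were nearer to Foxa2 regions than the rest, with 49.9% (46.7 to 53.1) against 28.1% (26.6 to 29.8) within 10 kb. Regions of 1 run lie together, so a single Foxa2 region can count for many of them, and the intervals do not allow for this.

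The share of regions on each chromosome differed between the lines on several chromosomes, without a test. Chromosome 11 carried 8.67% of Foxa3 and 5.28% of Foxa2 regions, chromosome 6 carried 8.52% and 5.69%, and chromosome 17 carried 5.88% and 3.49%. The X chromosome carried 0.916% of Foxa3 and 2.03% of Foxa2 regions, and 2 of the 769 common regions. The share of Foxa3 regions that overlapped a Foxa2 region was between 11.5% (chromosome 11) and 26.4% (chromosome 14) on the autosomes and 4.44% on X.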

How the data were processed

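ChIP-seq peak lists of 6 libraries were compared, and the 8 other lists of the series served as further readouts. Per the submitters' processing notes, BWA 0.6.2, MACS2 2.1.0 and bedtools 2.16.2 were used with build mm9; settings and thresholds were not given in the sources used here. Every deposited list gives coordinates and a score per peak, the authors' own value on a scale that is not stated, and it served for ranks inside a list. Depth is unknown, so precision is limited to counting error over peaks.

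Overlaps were computed in scipy 1.17.1, pandas 2.3.3 and numpy 2.4.6 under Python 3.11.15, with functions tested on simulated data. An overlap of 1 bp counted as shared. Libraries were grouped by line, antibody and EGS from their titles. Tests over libraries were exact permutation tests. For each class (both lines, 4a2 only, 4a3 only) the 6 regions named are those in most libraries, ties broken by mean rank percentile. Also named were the first peak of each list and 3 of the 8 regions of largest rank difference between the non-EGS lists, picked after their values were seen. Dense runs named were chosen after their values were seen. The members and lists were chosen with earlier results of these data known.

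The planned gene and sequence context, the marker and gene lists and motif searches need mm9 sequence or annotation and were not analysed here. Alternatives tried were list cut-offs, overlap, merging, dense runs, EGS and each library left out. The shares per library in the Foxa1 and hepatocyte Foxa3 lists, their alternatives, the EGS and non-EGS splits of the measures per library and the comparison of the top 900 peaks were chosen after seeing the data; the shares per class of region were planned.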

Additional observations from a re-analysis of the deposited data

How the results depend on the processing

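The direction of the similarity within against between lines was kept in all 15 alternatives tried. Relabelling within EGS and non-EGS libraries is among them, but it changes only the p-value and leaves the difference at 60.4 points. In shares of peaks the difference went from 25.5 points with the top 900 peaks to 66.3 without 1 Foxa2 library. On the Jaccard index it was 4.51 points. There the pairs within and between lines overlapped, and 1 pair of Foxa2 lists (21.3%) was far above the rest. None of the permutation tests can reach 0.05 (the smallest p possible was 0.333 with EGS libraries only and 0.167 when relabelled within EGS and non-EGS libraries). Non-EGS libraries alone, 1 a line, give no such value. Leaving out each library in turn gave 47.2 to 66.3. With the top-scoring 50% of each list, 5.55% of Foxa2 regions were in the Foxa3 line and 13.96% the reverse, with 330 common regions, 40 in at least 2 libraries of each line, 421 and 233 in at least 2 libraries of Foxa2 or Foxa3 only, and 5.57% of Foxa3-only regions in the hepatocyte Foxa3 list. With the top 300 peaks these values were 8.07%, 11.7%, 57, 9, 135, 91 and 12.5%, and 64.9% of common regions held Foxa1. With EGS libraries only they were 12.2%, 15.2%, 187, 1, 313, 28, 12.3% and 73.3%. With non-EGS libraries only the first shares were 5.19% and 14.8%. An overlap of 50% of the narrower peak gave 15.4% of Foxa3 regions in the Foxa2 line, and merging within 1 kb gave 23.3% and a Foxa1 share of 49.3%. Without dense runs the shares were 6.05% and 19.3%, with 266 recurrent Foxa3-only regions and a hepatocyte share of 3.12%. The rank contrast of non-EGS Foxa2 was 17.6 points between the top and bottom 10% and 12.2 between the top and bottom 20%. It was 13.9 against non-EGS Foxa3 only and 8.16 against EGS Foxa3 only. The rank contrast of non-EGS Foxa3 was 2.12 points (interval −2.51 to 6.74). It was 0.479 between the top and bottom 20%, 1.42 against non-EGS Foxa2 only and 4.88 against EGS Foxa2 only. Against EGS lists only, the contrasts of the lines were thus closer, and no interval was computed there.

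Leaving out each library gave 2.39% to 26.8% and 8.59% to 22.6% for the shares of Foxa2 and Foxa3 regions in the other line, 277 to 769 common regions, 1 to 99 in at least 2 libraries of each line, 221 to 1126 and 23 to 430 recurrent in Foxa2 or Foxa3 only, 51.1% to 69.0% for Foxa1 in common regions and 4.50% to 13.3% for the hepatocyte list. For Foxa3 minus Foxa2 libraries it gave −0.97 to 0.014 for log10 peak count (reversed without the list of 46 peaks), −141 to 20.1 bp for median width (reversed without non-EGS Foxa2, and 9.5 bp with EGS libraries only), 20.7 to 26.7 points for dense runs, −17.4 to −3.67 for peaks in the other line, −45.7 to −28.3 for Foxa1 and 6.68 to 24.0 for hepatocyte Foxa3. Peaks in the other line were −9.29 points, but 8.99 in non-EGS libraries only and 1.18 with the replicate block. That block pairs 2 libraries a line by EGS and replicate number, which names no shared origin, and it reversed no other measure. The cause of these changes was not tested.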
